A study of Mus musculus with 28 samples.

Results

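The 8 genes S100a8, S100a9, Lcn2, Camp, Ngp, Ltf, Retnlg and Mmp8 encode cytosolic and granule proteins of maturing neutrophils. They were chosen by symbol and matched to Ensembl identifiers in a table of 38924 mouse genes, where all 8 were found. Neutrophils make their granules in waves. The primary granules, with myeloperoxidase and serine proteases, are filled at the promyelocyte stage, the secondary granules, with lactoferrin, lipocalin 2 and cathelicidin, at the myelocyte and metamyelocyte stages, and gelatinase granules later still. S100a8 and S100a9 pair as calprotectin, a calcium-binding and metal-sequestering protein that is abundant in the neutrophil cytosol and is also made by monocytes. Haematopoietic stem cells are not known as a main source of these proteins.

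RNA was measured by bulk sequencing of polyadenylated RNA in 28 libraries of C57BL/6 mouse bone marrow cells, 13 of long-term haematopoietic stem cells (LT-HSC) and 15 of MPP3, a multipotent progenitor with a myeloid bias. All donors were young and all recipients carried CD45.1, a leukocyte surface variant, and the cells were sorted again 4 months after transplantation. The donor marrow was Mx1-Cre (control; Mx1-Cre is a recombinase transgene under an interferon-responsive promoter, active in blood cells among others) or Dnmt3a-mutant (called mutant here), and the recipients were young or aged (called old here). In old recipients there were 3 control and 4 mutant LT-HSC libraries and 4 control and 4 mutant MPP3 libraries. In young recipients there were 4 control and 2 mutant LT-HSC libraries and 4 control and 3 mutant MPP3 libraries. The mutant allele, the recipients' exact ages, the number of donors and the sort gates are not given in the sources used here. Every LT-HSC library of old recipients pooled 2 animals and every library of young recipients came from 1, so pooling and recipient age cannot be told apart.

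Total counts lay between 5.59 M and 10.79 M (M for mega) per library. Dnmt3a, the targeted gene, was between 44.3 and 131 CPM (read counts scaled to a common library size with edgeR's TMM factors) in control and between 41.9 and 161 in mutant LT-HSC, so its total level did not tell the genotypes apart. Of 8 LT-HSC marker genes, 8 were lower in MPP3, and of 8 primary granule genes 6 were higher (edgeR quasi-likelihood test, adjusted p under 0.05; 5.89% of all 16309 genes were lower and 6.35% higher). Replicate 4 of old mutant LT-HSC stood apart from the other 12 LT-HSC libraries, with the highest summed CPM of B and plasma cell genes (14737), erythroid genes (17101) and monocyte genes (684) and the lowest of the LT-HSC markers (913, against a median of 1939). The fold bounds and log2 changes of old mutant LT-HSC are given with and without it.

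The 8 genes lie on 4 chromosomes (GRCm38, GENCODE M21). S100a8 (ENSMUSG00000056054, 3:90668978-90670035) and S100a9 (ENSMUSG00000056071, 3:90692632-90695721) are neighbours on opposite strands with 22596 bases between them. Camp (ENSMUSG00000038357, 9:109847379-109849617), Ngp (ENSMUSG00000032484, 9:110419747-110423012), Ltf (ENSMUSG00000032496, 9:111019271-111042767) and Mmp8 (ENSMUSG00000005800, 9:7558456-7568485) lie on chromosome 9, Lcn2 (ENSMUSG00000026822, 2:32384633-32388252) on chromosome 2 and Retnlg (ENSMUSG00000022651, 16:48872621-48874496) on chromosome 16. All are annotated as protein-coding.

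Their promoters are shown because several members were high in the same LT-HSC libraries. Not all were: old mutant replicate 1 held 669 counts of S100a8 and 0 of Lcn2, Camp, Ngp and Ltf. C/EBP proteins are the textbook activators of late granule genes, and the letters TTNNGNAA, a relaxed form of their motif, were searched on both strands in the 250 bases before each RefSeq start (GRCm38.p6). Matches were found in 7 of the 8 windows, all but that of Camp, and in 36.9% of 32841 promoters. GAGGAA, the core of the PU.1 motif, was in 4 of 8 windows and in 23.3% of promoters, and TATAAA, searched in the same way, in 1 of 8 and in 7.59%. A match is a description of letters, not a site. In the stretches below, capitals mark the TTNNGNAA matches, and bases inside the GENCODE gene were left out. The S100a8 stretch is chr3:90668821-90668977 on the plus strand, that of S100a9 chr3:90695722-90695971 on the minus strand, that of Ngp chr9:110419558-110419746 on the plus strand and that of Mmp8 chr9:7558179-7558428 on the plus strand.
S100a8: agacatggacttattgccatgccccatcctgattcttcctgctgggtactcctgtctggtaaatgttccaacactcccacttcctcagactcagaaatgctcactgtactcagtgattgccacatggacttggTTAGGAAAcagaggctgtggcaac
S100a9: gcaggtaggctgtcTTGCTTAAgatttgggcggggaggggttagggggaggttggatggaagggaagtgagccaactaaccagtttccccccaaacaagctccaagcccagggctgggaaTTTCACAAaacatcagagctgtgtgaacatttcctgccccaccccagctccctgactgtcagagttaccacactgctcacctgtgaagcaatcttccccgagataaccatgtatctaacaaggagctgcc
Ngp: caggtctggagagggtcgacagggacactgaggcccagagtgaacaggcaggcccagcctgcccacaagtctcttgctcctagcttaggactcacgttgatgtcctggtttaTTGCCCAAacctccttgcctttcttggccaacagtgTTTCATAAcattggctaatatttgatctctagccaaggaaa
Mmp8: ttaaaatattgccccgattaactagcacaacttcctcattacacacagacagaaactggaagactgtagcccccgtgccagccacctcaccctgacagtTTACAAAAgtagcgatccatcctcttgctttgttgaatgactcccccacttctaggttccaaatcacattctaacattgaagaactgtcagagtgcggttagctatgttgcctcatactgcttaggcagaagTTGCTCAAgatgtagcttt
The S100a9 window held 2 matches, beginning at positions -236 and -130 from the start, and the S100a8 window 1, at -117. The Mmp8 window held 2, at -151 and -19.

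The first question was how the members differed between old and young recipients in LT-HSC. They were found at high level in several LT-HSC libraries of old recipients and at or near 0 in those of young recipients. The summed CPM of the 8 members had a median of 658 in the 7 old libraries, from 7.08 to 14730.4, and of 0.753 in the 6 young libraries, from 0.106 to 23.4. The old and young ranges overlapped only through old mutant replicate 2, at 7.08, which lay below young control replicates 2 (16.7) and 4 (23.4). Fewer cells of a type and less RNA per cell cannot be told apart in bulk samples. Old libraries were sequenced to 5.59 M to 7.52 M counts and young ones to 6.13 M to 9.36 M; the part of depth was not tested. Mitochondrially encoded genes took 14.4% to 27.7% of counts in old and 13.9% to 28.4% in young LT-HSC libraries. The relation was seen in both inferred sequencing pools: medians were 761 (n = 4) against 0.641 (n = 4) in pool 1 and 658 (n = 3) against 11.95 (n = 2) in pool 2.

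**Figure D1:**
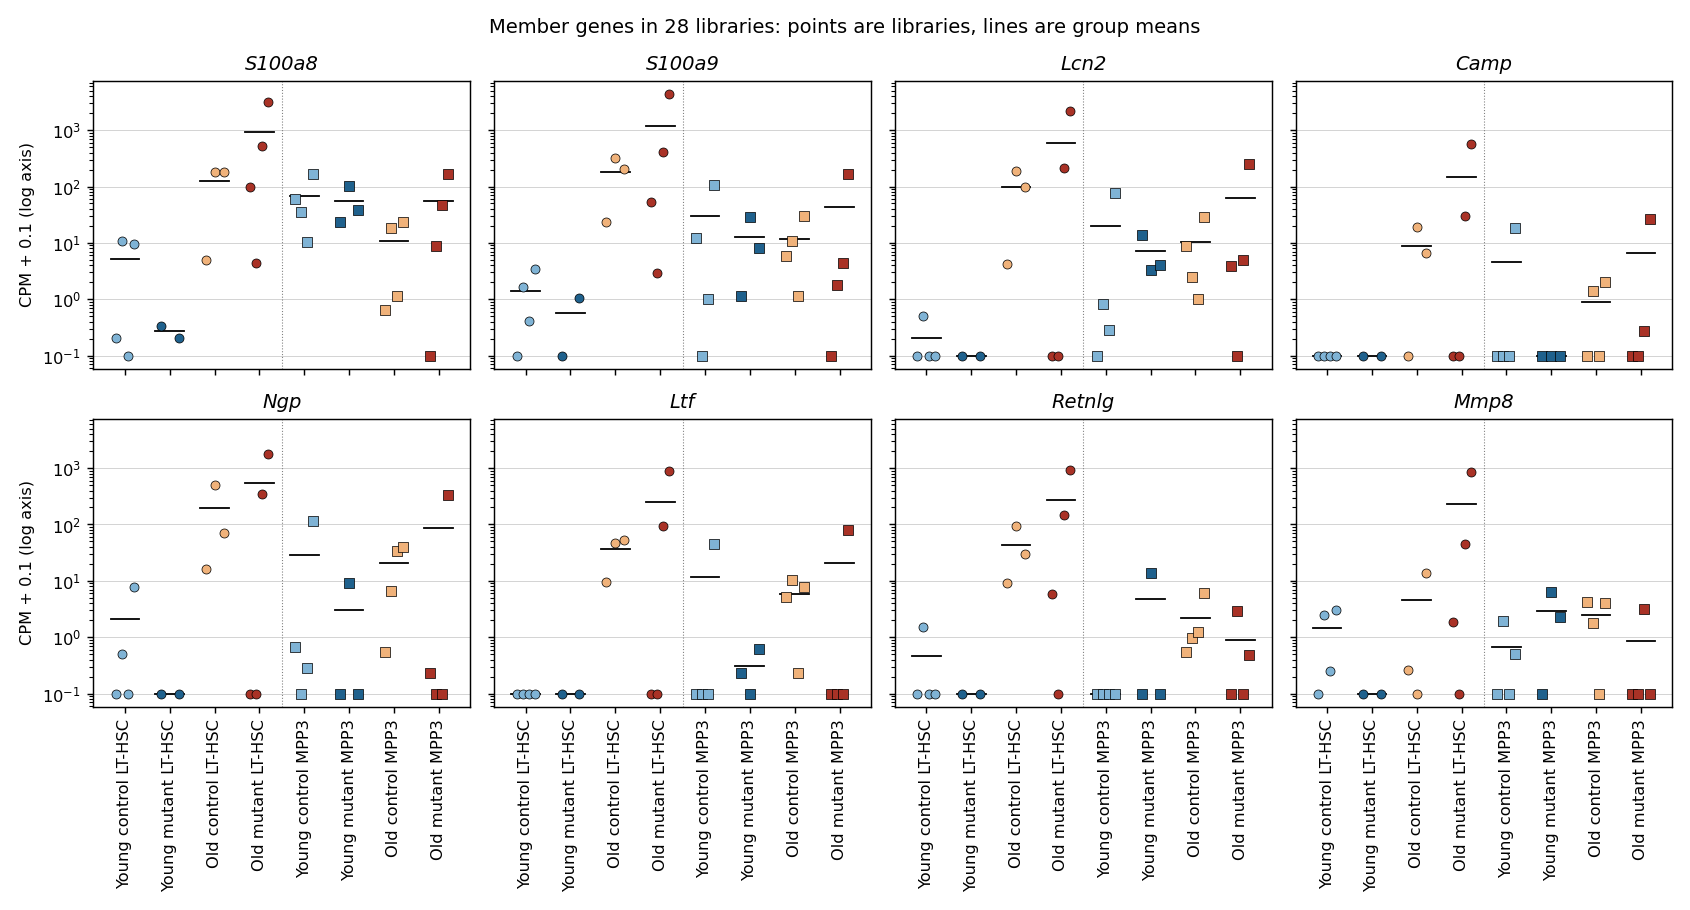
CPM of each member, plus 0.1 and on a log axis, in every library of the 8 groups; points are libraries (circles LT-HSC, squares MPP3) and lines are group means. In LT-HSC, old mutant replicate 4 is the highest point in every panel, and the young mutant points lie at or near the axis floor.

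Of the calprotectin pair, S100a8 was at 4.95, 183 and 185 CPM in old control LT-HSC and at 99.2, 4.30, 514 and 3130.4 in old mutant LT-HSC. In young control LT-HSC it was at 0.106, 10.5, 0 and 9.50 CPM, and in young mutant LT-HSC at 0.242 and 0.104, with no more than 2 counts. All 4 old mutant libraries lay above both young mutant ones, and the old control range overlapped the young control range through replicate 1. S100a9 was at 23.8, 326 and 203 CPM in old controls against 0, 1.54, 0.310 and 3.37 in young controls, without overlap. In old mutants it was at 52.2, 2.78, 412 and 4365.6 CPM against 0 and 0.936 in young mutants, again without overlap, with old mutant replicate 2 the nearest to the young libraries.

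Among the secondary granule genes, Ngp, which encodes a cystatin-like granule protein, was at 15.8, 505 and 70.1 CPM in old control LT-HSC and at 0, 0.410, 0 and 7.66 in young control LT-HSC. Old mutants were at 0, 0, 346 and 1806 CPM, and both young mutants at 0. Only replicates 3 and 4 of the 4 old mutant libraries held any Ngp, Lcn2, Camp or Ltf counts. Lcn2, encoding the siderophore-binding protein lipocalin 2, was at 4.12, 189 and 98.2 CPM in old controls and had 0 counts in 5 of the 6 young libraries, with 4 counts in the remaining one. Ltf (lactoferrin, an iron-binding protein) was at 9.57, 47.4 and 53.0 CPM and Camp (the cathelicidin precursor) at 0, 19.3 and 6.62 CPM in old controls, and both had 0 counts in every young LT-HSC library. In old mutants the 2 libraries that held them were at 212 and 2172 CPM for Lcn2, 92.8 and 906 for Ltf, and 29.9 and 561 for Camp.

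Of the remaining members, Retnlg separated old from young controls and Mmp8 did not. Retnlg, a resistin-like secreted protein of mature neutrophils and bone marrow, was at 8.91, 93.4 and 29.4 CPM in old controls and at 5.63, 0, 149.7 and 929 in old mutants. In young LT-HSC it was above 0 in 1 library, at 1.43 CPM. Mmp8, the neutrophil collagenase, was at 0.165, 0 and 13.4 CPM in old controls and at 0, 2.36, 0.155 and 2.91 in young controls, so its control ranges overlapped. In old mutants Mmp8 was at 1.78, 0, 45.2 and 861 CPM, and in both young mutants at 0.

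Between old and young control LT-HSC, 5 of the 8 members did not overlap, and all 5 were higher in old recipients (S100a9, Lcn2, Ngp, Ltf and Retnlg). Of all 14588 genes, 2.29% were higher without overlap. Lcn2, Ngp, Ltf and Retnlg passed the filter on low counts through the old libraries, so this count of members is a description. Between old and young mutants 2 did not overlap (S100a8 and S100a9; 5.48% of genes), and over both donors 0 (0.0548%). No member passed the edgeR test adjusted over all genes, and no gene of the table did in any age or genotype comparison (percent called 0). In the control donor, S100a9 stood 7.20 log2 units higher (SE 2.06; adjusted p = 0.773 with edgeR), Lcn2 9.53 (SE 3.01), Retnlg 6.80 (SE 2.10), Ngp 6.68 (SE 2.74), S100a8 4.67 (SE 1.87) and Mmp8 1.78 (SE 2.08). Without old control replicate 3 the Mmp8 value turned to -3.78. Camp and Ltf were at 0 in the young controls, and were at least 22.3-fold and at least 94.5-fold higher in old ones, against a floor of 3 counts per library.

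In young mutants 7 of the 8 members had no library above 3 counts, so only bounds can be given. S100a8 was at least 2779-fold higher in old mutants, and at least 610.5-fold without old mutant replicate 4. The bounds were 1768-fold for Lcn2, 1595-fold for Ngp, 804-fold for Retnlg, 740.5-fold for Ltf, 673-fold for Mmp8 and 438-fold for Camp, and without that library 209.6, 342, 154, 91.8, 46.4 and 29.6. These are ratios of group means, and for Lcn2, Camp, Ngp and Ltf they rest on old mutant replicates 3 and 4, since replicates 1 and 2 had 0 counts.

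At an unadjusted p under 0.05, 7 members were higher in old controls (2.49% of genes), 8 in old mutants (3.28%) and 8 over both donors (3.77%), the last a comparison added after the values were seen. Camp and Ltf had 0 counts in every young LT-HSC library. Lcn2 (at most 4 counts), Retnlg (14 counts in 1 library) and Ngp (50 counts in 1 library and 4 in another) were also sparse there. These members passed the filter on low counts through the old libraries, so these counts and the DESeq2 calls by age are a description. The DESeq2 Wald test called 3 members higher in old controls (S100a9, Camp and Ltf; 1% of genes were called), 8 in old mutants (2.17%) and 8 over both donors (1.7%). The adjusted p of S100a9 in controls ranged from 0.0225 to 0.920 over all alternatives, and was under 0.05 only with that tool. The difference in age effect between the cell types, also added later, gave an edgeR adjusted p of at least 0.219, the value of S100a8, with 6 of 8 members at an unadjusted p under 0.05, all with the larger age effect in LT-HSC (4.27% of genes in that direction and 4.58% in the other) and 6 called by DESeq2 (2.53%). Retnlg (SE 31707) and Camp (SE 43465), with groups at 0 counts, had no usable edgeR estimate of this difference.

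The second question was the effect of the Dnmt3a mutation in LT-HSC. In old recipients the 8 members were fitted higher in mutants, with a median log2 change of 2.72 against 0.11 over all genes, of which 53.3% were above 0. The largest of the 8 was Mmp8, at 5.62 (SE 2.56, edgeR adjusted p = 0.484), and the smallest Ngp, at 1.44 (SE 2.34, adjusted p = 0.893). S100a8 changed by 2.89 (SE 1.88, adjusted p = 0.606) and S100a9 by 2.70 (SE 1.81, adjusted p = 0.622), within the spread between replicates. At an unadjusted p under 0.05 stood 1 member, Mmp8 (5.86% of genes higher and 4.36% lower), and DESeq2 called 0 (2.6%). None of the members separated the groups (2.87% of genes were higher without overlap).

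Replicate 4 supplied most of this difference. It held 83.5% (S100a8) to 94.9% (Camp) of the summed CPM of a member over the 4 old mutant libraries. Without it the mean of S100a9 was 156 CPM ± 224 (SD, n = 3) in old mutants against 184 ± 152 (SD, n = 3) in old controls, and the log2 changes of S100a9, Lcn2, Ngp and Ltf turned to -0.29, -0.51, -0.82 and -0.29. Those of Mmp8, S100a8, Retnlg and Camp came to 1.73, 0.68, 0.19 and 0.16, so 4 of the 8 members were then above 0. The mean of Camp without it was 9.97 CPM ± 17.3 against 8.63 ± 9.78, and that of Mmp8 15.7 ± 25.6 against 4.53 ± 7.70.

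In young LT-HSC, 0 members passed edgeR's test between mutants and controls, 0 stood at an unadjusted p under 0.05 (1.36% of genes higher and 1.6% lower) and DESeq2 called 4 lower in mutants (Mmp8, Retnlg, Lcn2 and Ngp; 0.946% of genes called). All 4 were at 0 in both mutants. In controls Lcn2 had 4 counts and Retnlg 14, each in 1 library, Ngp had 0, 4, 0 and 50, and Mmp8 0, 23, 1 and 19. The 4 DESeq2 calls are therefore given as calls only. Against the floor of 3 counts Retnlg was at least 1.06-fold higher in controls, and the mean of Lcn2 was under the floor. The control libraries carried few counts here, from 1 to 163 over all 8 members. S100a8, with 62 and 103 counts in 2 of the 4 young controls, 1 and 0 in the others and 2 and 1 in the young mutants, was at least 14.9-fold higher in controls, and Mmp8 at least 4.02-fold. Both bounds use the mean of the controls, and neither gene separated the controls from the 2 mutant libraries. S100a9 was fitted at -1.35 log2 units (SE 2.36; adjusted p = 1 with edgeR). The genotype by age interaction in LT-HSC called 0 members with edgeR (smallest adjusted p 0.618, 2 members under 0.05 unadjusted, 5.2% of genes higher) and 4 with DESeq2 (1.79%). Ltf (SE 12706) and Camp (SE 17049), at 0 counts in every young LT-HSC library, had no usable edgeR estimate of it. The interaction includes the young mutants, where most members were at or near 0 counts, so its DESeq2 calls are also given as calls only.

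MPP3 libraries were compared in the same way and showed no such split by age. The summed CPM of the members had a median of 45.1 in the 8 old libraries, from 3.87 to 1025, and of 52.8 in the 7 young ones, from 11.5 to 528. Age and inferred pool were unbalanced in MPP3. Pool 2 medians were 59.2 in old (n = 3) and 63.2 in young libraries (n = 6). Pool 1 held 5 old libraries and only 1 young one, so the ages could not be compared within it. S100a8 was counted in 14 of 15 MPP3 libraries, at 0.552, 17.9, 1.03 and 23.4 CPM in old controls and at 0, 8.67, 46.9 and 167 in old mutants. In young recipients it was at 60.8, 35.3, 10.2 and 164 CPM in controls and at 23.4, 103 and 38.1 in mutants. The ranges of all 4 MPP3 groups overlapped for S100a8.

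The secondary granule genes were uneven among MPP3 libraries. Ngp was at 0.442, 6.47, 34.4 and 40.1 CPM in old control, 0.129, 0, 0 and 339.7 in old mutant, 0.578, 0, 0.183 and 114 in young control and 0, 8.87 and 0 in young mutant MPP3. In old mutant and young control MPP3, replicate 4 was the single high library for Ngp, Lcn2, Camp and Ltf, with 246 and 77.0 CPM of Lcn2, 26.0 and 18.2 of Camp, and 81.0 and 45.8 of Ltf. Old mutant MPP3 replicate 4 came from the same pooled animals as the LT-HSC library with the highest members.

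Retnlg was the 1 member that separated 2 MPP3 groups. It had 4, 8, 9 and 59 counts in old control MPP3 and 0 in all 4 young controls, at least 4.75-fold higher, with an edgeR adjusted p of at least 0.801 for every member of that comparison (1 of 8 members without overlap, against 2.53% of genes). In the other MPP3 comparisons by age or genotype, edgeR called 0 members, with adjusted p of at least 0.793. At an unadjusted p under 0.05 stood Retnlg in old against young controls (3.01% of genes higher), Camp in old against young mutants (2.63% higher), and Retnlg higher and Camp lower in young mutants against young controls (3.03% higher and 3.04% lower). DESeq2 called 0 members in MPP3, and gave no adjusted p for 4 of them (Camp, Lcn2, Ltf and Retnlg).

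The cell types were then compared with each other. The primary granule genes, made at the promyelocyte stage, were far higher in MPP3: Mpo (myeloperoxidase) was 8.62 log2 units higher (SE 1.28; adjusted p = 0.000125 with edgeR), Elane (neutrophil elastase) by 7.77 (SE 1.28), Ctsg (cathepsin G) by 8.42 (SE 1.14) and Prtn3 (proteinase 3) by 3.76 (SE 0.48). The later members gave no such edgeR call over both recipient ages together. In young recipients their summed CPM had a median of 52.8 in MPP3 and 0.753 in LT-HSC. In old recipients the medians were 45.1 and 658. The ages thus ran in opposite directions, and the contrast averaged over them. Of the 8 members, 0 were called in either direction (12.2% of genes called), 0 had an unadjusted p under 0.05 (13.9% of genes higher and 11.1% lower), and no adjusted p was below 0.485. Retnlg (SE 12169) and Camp (SE 404) had groups with 0 counts and no usable estimate here, so their lack of a call carries no information. DESeq2 called 3 higher in MPP3 (Lcn2, Ngp and Ltf; 17.8% of genes), in a fit where 7 members were at the floor in young mutant LT-HSC. Without the animals of old mutant replicate 4, in both cell types, edgeR again called 0 members, of 2070 genes called.

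Of 12 other later granule genes, 1 was higher in MPP3 (Hp, haptoglobin, by 7.45, SE 0.96) and 1 lower (Lyz2, lysozyme, by a log2 change of -1.45, SE 0.39). Of 8 granulocyte regulators 5 were higher (Gfi1, Cebpa, Cebpd, Cebpe and Irf8) and 1 lower (Cebpb). Cebpe, the C/EBP factor that secondary granule genes require, was higher in MPP3 by 5.46 (SE 1.38, edgeR adjusted p = 0.0094), with 0 counts in 11 of 13 LT-HSC libraries and 2 to 258 counts in every MPP3 library. The 2 LT-HSC libraries with Cebpe were old mutant replicate 4 (45 counts) and young control replicate 2 (35 counts). Old mutant LT-HSC replicate 3 and old control LT-HSC replicates 2 and 3, with high members, had 0 counts of Cebpe. Of the other S100 genes, S100a6 and S100a10 were lower in MPP3 and the 4 others tested did not pass. Of 4 receptors of member proteins (Tlr4, Ager, Slc22a17 and Fpr2) 0 passed.

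**Figure D2:**
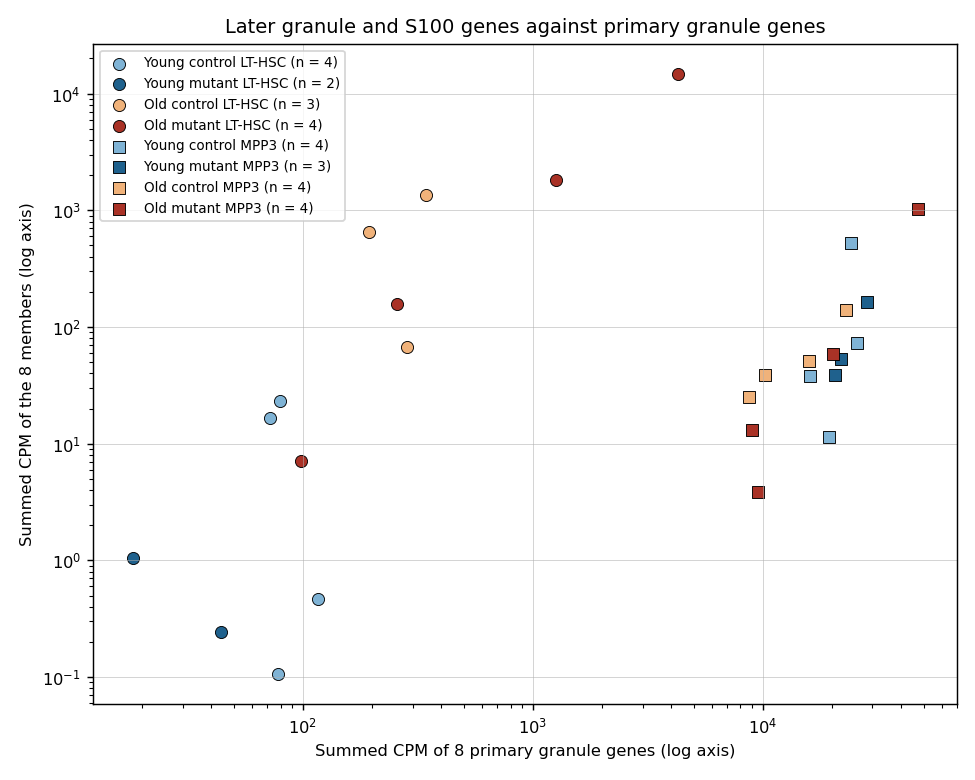
Summed CPM of the 8 members against summed CPM of 8 primary granule genes, both on log axes, with 1 point per library (circles LT-HSC, squares MPP3). MPP3 libraries sit between 8744 and 47399 on the horizontal axis, and LT-HSC libraries between 18.2 and 4262 with a wide vertical spread.

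The members were therefore set against the primary granule genes within each library. In MPP3 there were 0.000405 to 0.0217 member counts per primary granule count. In LT-HSC the ratio was 0.0722 to 3.96 in old and 0.00137 to 0.294 in young libraries. The highest ratios were 3.96 in old control replicate 2, 3.46 in old mutant replicate 4, 3.39 in old control replicate 3 and 1.43 in old mutant replicate 3. Every old LT-HSC library lay above the highest MPP3 ratio of 0.0217. So did young control replicates 2 (0.233) and 4 (0.294) and young mutant replicate 2 (0.0571, with 10 member counts). Primary granule genes summed to 18.2 to 4262 CPM in LT-HSC and to 8744 to 47399 in MPP3, so the ratio also reflects their low level in LT-HSC. Elane was highest in old mutant replicates 4 (5609 counts) and 3 (1668 counts), the libraries with the highest summed members. Other LT-HSC libraries differed: old control replicate 1 had 1020 counts of Elane with 30 of S100a8, old control replicate 3 had 3 counts of Elane with 1004 of S100a8, and old mutant replicate 1 had 0 counts of Elane with 669 of S100a8.

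The make-up of the member counts differed between libraries that held at least 500 of them, 5 of LT-HSC and 5 of MPP3. Per kilobase of annotated exon, S100a9 was the highest member in 6 of these and S100a8 in the other 4. In old mutant LT-HSC replicate 1, S100a8 and S100a9 took 62.5% and 32.9% of the member counts and Lcn2, Camp, Ngp and Ltf 0 counts. In young control MPP3 replicate 1 they took 82.5% and 16.7%, with 4 counts of Ngp and 0 of the other 5. In young mutant MPP3 replicate 2 S100a8 took 62.9%, with 0 counts of Camp and Ltf. In the other 7 libraries Lcn2, Camp, Ngp and Ltf were all counted, and Ngp took 37.0% in old control LT-HSC replicate 2 and 12.3% in old mutant LT-HSC replicate 4.

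Retnlg and Mmp8 differed in their share between libraries of both cell types. Together they took 12.1% of member counts (exact Clopper-Pearson 95% interval 11.9 to 12.4) in old mutant LT-HSC replicate 4, 10.8% (10.3 to 11.4) in replicate 3, and 6.85% and 6.51% in old control LT-HSC replicates 2 and 3. The 6.85% was Retnlg alone, with 0 counts of Mmp8. In old mutant LT-HSC replicate 1 Retnlg and Mmp8 took 4.67% (3.48 to 6.11). In old mutant MPP3 replicate 4 they took 0.0377% (0.0103 to 0.0966) and in young control MPP3 replicate 4 0.0777% (0.0160 to 0.227), with 3513 and 836 counts of Ngp in the same libraries. Young control MPP3 replicate 1 had 0 counts of both among its 510 member counts. Of the other MPP3 libraries with at least 500 member counts, old control replicate 4 was at 6.96% (5.69 to 8.42) and young mutant replicate 2 at 12.2% (10.5 to 14.1). These intervals cover counting error only.

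**Figure D3:**
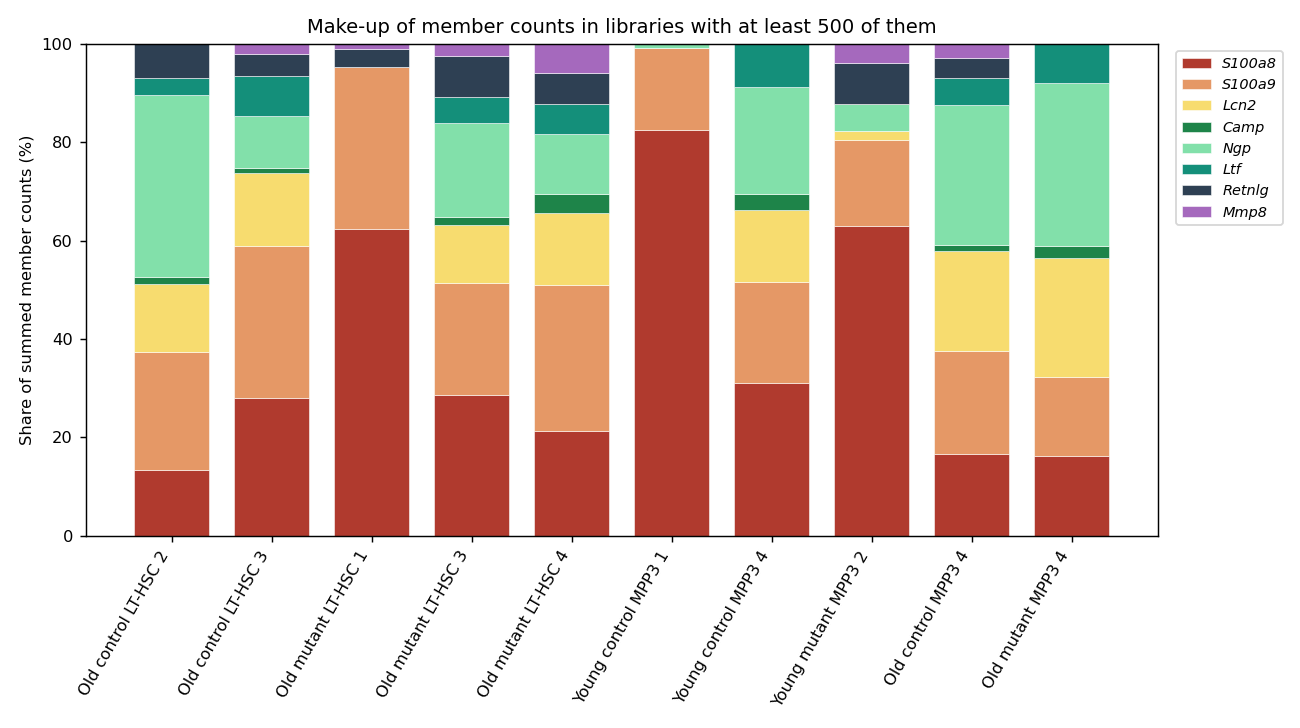
Share of each member in the summed member counts, in percent, for the 10 libraries with at least 500 member counts. Retnlg and Mmp8 together take 12.1% in old mutant LT-HSC replicate 4 0.0377% in old mutant MPP3 replicate 4 and 0.0777% in young control MPP3 replicate 4.

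Surface and signalling genes of mature neutrophils were set beside the members, as were the markers of other cell types. Ly6g, the defining surface marker of mouse neutrophils, had 0 counts in 11 of 13 LT-HSC libraries, with 88 counts in old mutant replicate 4 and 4 in old mutant replicate 3, the libraries with the highest and the next highest summed members. In MPP3 it had 0 counts in 13 of 15 libraries, with 7 counts in young control replicate 4 and 1 in old control replicate 4. Fpr1, a formyl peptide receptor, had 350 counts in old mutant LT-HSC replicate 4, 17 in old control replicate 3 and 2 in old control replicate 1, and 0 in the other 10. Il1b was at 2065 counts and Itgam at 5495 in old mutant replicate 4. Cxcr2 (302 to 2838 counts) and Csf3r (448 to 7106) were counted in all 28 libraries, and both were highest in old mutant LT-HSC replicate 4, at 495 CPM of Cxcr2 against an LT-HSC median of 67.6 and at 1239 CPM of Csf3r against 174.

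The list of 14 mature neutrophil genes summed to 3986 CPM in old mutant LT-HSC replicate 4 and to between 147 and 703 in the other 12 LT-HSC libraries. Its part in the member levels was not tested. Monocyte genes, which S100a8 and S100a9 can accompany, summed to 4.62 to 684 CPM in LT-HSC and to 317 to 1059 in MPP3. B and plasma cell genes were at 14737 CPM in old mutant LT-HSC replicate 4, with 14730.4 of members, and at 10211 in replicate 1 of that group, with 159 of members. Erythroid genes were at 17101 CPM in replicate 4, 3615 in old mutant replicate 3 and 2580 in old control replicate 3, and at 405 to 2852 in the others. The 2852 CPM, above old control replicate 3, was in an old mutant library whose members summed to at most 159 CPM. Whether mature cells among the sorted cells carried the members was not tested.

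**Figure D4:**
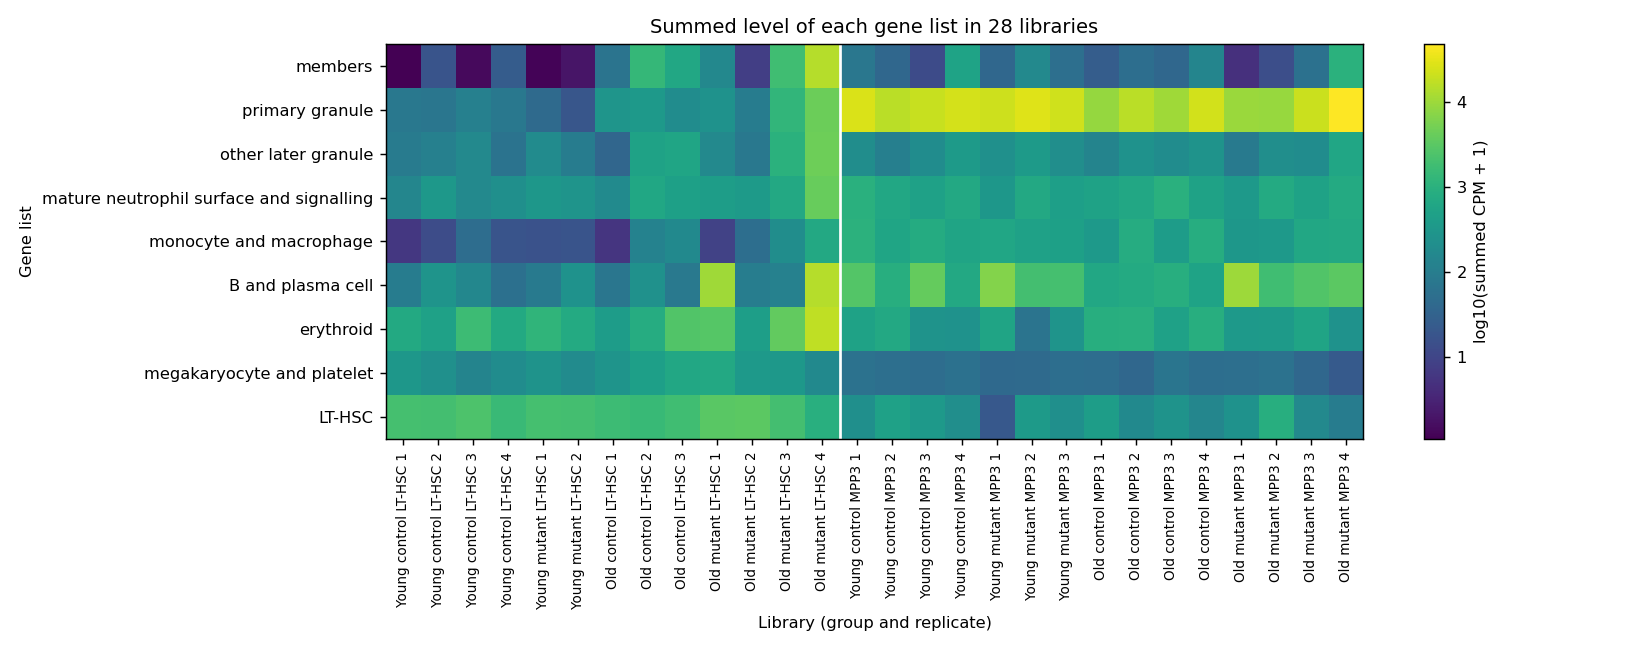
Colour gives log10(summed CPM + 1) of 9 gene lists (rows) in the 28 libraries (columns, LT-HSC left of the white line and MPP3 right). Old mutant LT-HSC replicate 4 is high for members (14730.4 CPM), B and plasma cell (14737 CPM) and erythroid genes (17101 CPM) and lowest among LT-HSC for LT-HSC markers (913 CPM).

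The genes whose pattern over the 13 LT-HSC libraries was most like the mean of the members were Itgb2l (Spearman rho 0.877), Col26a1 (0.874), Ly6c2 (0.872), Ear2 (0.866) and Abca13 (0.861), followed by Hemgn, F13a1, Itgam, Fgf13 and Gsr down to 0.852. Of these 10, 3 were also among the 10 highest by Pearson r. Over the 15 MPP3 libraries the highest with a symbol were Stk11 (0.854), Dmap1 (0.854), Chst13 (0.850) and Tmem43 (0.850), and 1 of 10 was shared with the Pearson ranking. The median rho over all genes was -0.0604 in LT-HSC and 0.0429 in MPP3.

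The members' own relations were examined as log2(CPM + 2). S100a8 and S100a9 rose and fell together over LT-HSC libraries (Pearson r 0.968, Spearman rho 0.911, permutation p = 1e-05 and 5e-05, the first the smallest that 100000 permutations give; adjusted over 9 relations 9e-05 and 0.00045; r 0.931 without the 2 most extreme libraries). Within old recipients r was 0.958 (n = 7), within young 0.849 (n = 6), and within pool 1 0.979 (n = 8); pool 2 held 5 libraries and gives no value. In MPP3 r was 0.711 and rho 0.704 (n = 15, permutation p = 0.0035 and 0.00454, adjusted 0.00525 and 0.00817), 0.753 without the 2 most extreme libraries, and 0.772 and 0.693 within pools 1 and 2. Camp and Ngp gave r 0.914 and rho 0.854 in LT-HSC (permutation p = 0.0001 and 0.00017, adjusted 0.0003 and 0.00051). Without the 2 most extreme libraries r was 0.918. In MPP3 they gave r 0.856 and rho 0.608 (permutation p = 0.0002 and 0.0175, adjusted 0.00045 and 0.0263), and r 0.608 without the 2 most extreme. Camp had 0 counts in 9 of 13 LT-HSC libraries, all young ones among them, and in 10 of 15 MPP3 libraries. Within old LT-HSC r was 0.901 (n = 7), and the young ones give no value. Libraries were permuted across age and genotype groups, so these p-values, and those of the S100 pair, also take in differences between groups.

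The summed members and the summed primary granule genes are given as descriptions only. They had r 0.891 over LT-HSC (0.784 without the 2 most extreme libraries), with 0.865 in the 7 old and 0.227 in the 6 young libraries. In MPP3 r was 0.801, with 0.918 in pool 1 and 0.520 in pool 2. With B and plasma cell genes r was 0.498 in LT-HSC and -0.325 in MPP3. Summed members in LT-HSC and MPP3 of the same animals (13 animals or pools with both) had r 0.327, and -0.0412 without the 2 most extreme, with 0.791 in the 7 old and 0.428 in the 6 young. Old mutant replicate 4 was the highest in both cell types, at 14730.4 and 1025 CPM. Some animals differed between cell types: old control animals of LT-HSC replicate 2 were at 1363 CPM in LT-HSC and 45.1 in MPP3 (the mean of 2 libraries), and the young control animal of replicate 4 at 23.4 and 528.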

How the data were processed

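Polyadenylated RNA was sequenced from 28 libraries, and the submitters deposited 1 table of whole-number read counts per gene. The submitters' processing notes name RSEM 1.2.12, Bowtie2 2.2.0, SAMtools 0.1.18, edgeR 3.5.3 and GRCm38, without their roles; whether the deposited counts are rounded estimates, the annotation release and the strand setting are not given in the sources used here. Groups came from the sample titles, and 2 sequencing pools were inferred from the column names. Tests on the counts ran in R 4.3.3 with edgeR 4.0.16 (trimmed mean of M values, filterByExpr, robust quasi-likelihood test, Benjamini-Hochberg adjustment over all genes, threshold 0.05), in separate fits of LT-HSC (14588 genes), MPP3 (13933) and all libraries (16309); all 8 members passed the filter in each. The SE of an edgeR log2 change was calculated as its absolute value divided by the square root of the quasi-likelihood F statistic. The square root of the common dispersion was 1.17, 0.882 and 1.08 in these fits, which limits the precision of every fold change. DESeq2 1.42.0, other scalings, no filter, pool terms, replicate blocks and left-out libraries were alternatives. Correlations used log2(CPM + 2) and 100000 permutations. A floor of 3 counts per library bounded folds, and intervals are exact at 95%. Genes with the highest Spearman rho to the members' mean, 10 per cell type, and list genes by call were named. Code was tested on simulated data. The members and lists were chosen with earlier results of these data known.

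Replicate numbers name different animals in the genotype and age comparisons. LT-HSC and MPP3 of the same animals are paired by the animal numbers in the titles; deviations from the group means correlated at a mean r of 0.0123 over 14 such pairs, with 0 pairs above 0.1.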

Additional observations from a re-analysis of the deposited data

Results flagged for a closer look

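In groups of 4 libraries, a library far from the others by Dixon's criterion was seen for 26 of 42 sets of values examined (61.9%). Chance gives about 1 in 20 only for normally distributed values, and these CPM were skewed, with many zeros. A set in which only 1 library has counts is always flagged, so the percentage has no chance rate to set it against. The members share libraries, so the sets are not independent. Old mutant LT-HSC replicate 4 stood apart for S100a8 (3130.4 CPM), S100a9 (4365.6), Lcn2 (2172), Camp (561), Ltf (906), Retnlg (929), Mmp8 (861) and the summed members (14730.4). Old mutant MPP3 replicate 4, from the same animals, stood apart for S100a9 (165 CPM), Lcn2 (246), Camp (26.0), Ngp (339.7), Ltf (81.0) and the sum (1025). Young control MPP3 replicate 4 stood apart for S100a9 (108 CPM), Lcn2 (77.0), Camp (18.2), Ngp (114), Ltf (45.8) and the sum (528).

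The other libraries that stood apart did so at low levels. Young control LT-HSC replicate 2 was the only one of its group with Lcn2 (0.410 CPM) or Retnlg (1.43 CPM), and young control LT-HSC replicate 4 was high for Ngp (7.66 CPM). Retnlg was high in old control MPP3 replicate 4 (5.90 CPM) and old mutant MPP3 replicate 2 (2.83 CPM), and Mmp8 in old mutant MPP3 replicate 3 (3.07 CPM).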

How the results depend on the processing

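The tool changed the calls. DESeq2 called 3 members between cell types, 6 for the age by cell type interaction, 4 for the genotype by age interaction in LT-HSC, 4 between young mutants and controls in LT-HSC, and 8, 3 and 8 between old and young LT-HSC of both, control and mutant donors, where edgeR called 0. It called 412 genes for the age by cell type interaction, 261 and 41 for the genotype by age interaction in LT-HSC and MPP3, 380 and 138 for genotype in old and young LT-HSC, 56 and 54 in old and young MPP3, and for age 248, 146 and 317 in LT-HSC and 56, 31 and 56 in MPP3 (both, control and mutant donors). The adjusted p of S100a9 with DESeq2 was 0.0225 in control and 5.4e-05 in mutant donors. Between cell types, where edgeR called 1997 genes, blocking on the recipient animals gave 1242, pool 1 alone 100 and pool 2 alone 375; leaving out 1 library gave 1148 (without young mutant LT-HSC replicate 1) to 2305. Young MPP3 genotype within pool 2 gave 1 gene. Leaving out 1 library gave 0 to 10 genes for the age by cell type interaction (10 without old mutant LT-HSC replicate 2), 0 to 1 or 0 in the other comparisons, and 0 members throughout.

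The numbers of replicates are only names here: same-numbered LT-HSC libraries deviated together at a mean r of 0.000523 and MPP3 at 0.0131. With a replicate block on these numbers, the log2 changes between old mutant and control LT-HSC turned to -1.56 for Lcn2, -3.67 for Ngp, -5.03 for Ltf and -1.06 for Camp, and that of S100a9 in young LT-HSC to 0.16; the block changed no member's call. Without libraries above 1% immunoglobulin counts Ngp was at -0.23. Leaving out 1 library moved old mutant against control S100a9 from -0.29 to 3.43, Lcn2 from -0.51 to 3.55, Ngp from -0.82 to 3.66 and Ltf from -0.29 to 3.19, each lowest without old mutant LT-HSC replicate 4, and old against young control Mmp8 from -3.78 (without old control LT-HSC replicate 3) to 2.42. The cause was not tested. Most fits within a pool, and those without high-immunoglobulin libraries that involve old mutant MPP3, were not run, since too few or no libraries were left. With 2 to 4 libraries a group, low counts in young LT-HSC limit what can be detected.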
